A study of Mus musculus with 22 samples.

Results

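Igf2r, Airn, Impact, Zrsr1, Commd1 and Grb10 form 4 imprinted loci of the mouse, and the histone marks over them were followed across 3 induced pluripotent stem (iPS) cell lines. The members were all regions, in 6 deposited tables of called regions, that overlapped the mm10 extent of 1 of the 6 genes widened by 10 kb on each side. They came to 47 of 135566 H3K27ac regions and 18 of 68845 H3K9me3 regions. The genes were chosen by the differences in H3K27ac and H3K9me3 that the C2 and C3 lines showed from the OSKM line, so their differences from OSKM are given as a description, without p-values. At the edge of this rule, the H3K27ac member farthest from its gene lay 8.44 kb from Commd1 and had at most 0.142 RPM (scaled reads, defined below) in any library. The nearest region outside lay 11.8 kb from Impact, with 16.6 and 11.9 RPM in C2 and 15.2 and 13.6 in C3, against 24.8 and 22.0 in OSKM.

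Chromatin immunoprecipitation with sequencing was run on mouse cells reprogrammed from C57BL/6 embryonic fibroblasts. The C2 line carried the zinc-finger artificial transcription factors ZFATF1, ZFATF2 and ZFATF3 with Sox2, Klf4 and c-Myc. The C3 line carried ZFATF1, ZFATF2 and ZFATF4 with the same Sox2, Klf4 and c-Myc, and the OSKM line carried Oct4 with them. All 3 lines had been given 100 nM 4-hydroxytamoxifen, which acts on an Oct4-linked MerCreMer recombinase and a Tomato/GFP reporter. Each line gave 2 libraries per mark. The labels do not say whether these were separate cultures or clones, so p-values measure the spread between these samples, which may be technical. HA-tag libraries of C2 cells at day 20 and of cells given an empty vector with Sox2, Klf4 and c-Myc, 2 each, were used to look for HA peaks near the genes. Factor set and line go together and cannot be told apart.

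In an imprinted locus 1 parental copy is marked by DNA methylation at a control region, and the genes around it are read from 1 copy only. The methylated copy is usually bound by the zinc-finger protein ZFP57 with KAP1 and SETDB1, which keeps H3K9me3 there, and the other copy carries active marks such as H3K27ac. Igf2r, a receptor that clears insulin-like growth factor 2 and mannose-6-phosphate proteins, is read mainly from the maternal copy in mouse tissues. Airn is the antisense noncoding RNA that starts inside Igf2r on the paternal copy and silences it. Impact, a regulator of the stress kinase GCN2, and Zrsr1, a U2AF-related splicing gene that sits inside an intron of Commd1, are read from the paternal copy. Commd1 acts in copper handling and NF-kappaB control. Grb10 is an adaptor that restrains insulin receptor signalling, read from the maternal copy in most tissues and from an inner paternal start in neurons. The cells come from 1 inbred strain and the libraries from pooled cells. The marks therefore cannot be placed on a parental copy, and fewer marked cells and less mark per cell cannot be told apart.

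The bases before the 4 start sites that lie inside H3K9me3 regions are shown beside those of the Igf2r start, whose window overlaps none, because the results are given by these places. RefSeq entries for GRCm38.p6, the assembly behind mm10, matched 5 of the 6 genes with 7 start windows. Each line below gives the 250 bases before a start, with every CG dinucleotide, the unit that DNA methylation uses, in capitals. The windows are chr17:12741061-12741310 on the plus strand for Airn, chr11:22971755-22972004 on the plus strand for Zrsr1, chr11:12027972-12028221 on the minus strand for the inner start of Grb10, chr11:22972867-22973116 on the minus strand for the inner start of Commd1, and chr17:12769707-12769956 on the minus strand for Igf2r.
Airn: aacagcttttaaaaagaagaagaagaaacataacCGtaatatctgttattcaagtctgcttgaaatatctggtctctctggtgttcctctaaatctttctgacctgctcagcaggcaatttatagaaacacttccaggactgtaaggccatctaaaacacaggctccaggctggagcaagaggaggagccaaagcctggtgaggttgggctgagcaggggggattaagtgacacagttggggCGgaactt
Zrsr1: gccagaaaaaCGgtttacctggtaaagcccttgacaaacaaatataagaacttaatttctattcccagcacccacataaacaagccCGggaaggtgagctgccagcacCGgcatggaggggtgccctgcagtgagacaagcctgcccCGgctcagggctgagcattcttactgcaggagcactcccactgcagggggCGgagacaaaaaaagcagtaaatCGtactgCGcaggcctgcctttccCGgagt
Grb10 inner start: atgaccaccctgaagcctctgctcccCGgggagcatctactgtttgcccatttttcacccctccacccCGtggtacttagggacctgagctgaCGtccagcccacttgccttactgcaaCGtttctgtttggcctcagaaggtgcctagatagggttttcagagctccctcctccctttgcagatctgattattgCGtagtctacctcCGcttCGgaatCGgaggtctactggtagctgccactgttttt
Commd1 inner start: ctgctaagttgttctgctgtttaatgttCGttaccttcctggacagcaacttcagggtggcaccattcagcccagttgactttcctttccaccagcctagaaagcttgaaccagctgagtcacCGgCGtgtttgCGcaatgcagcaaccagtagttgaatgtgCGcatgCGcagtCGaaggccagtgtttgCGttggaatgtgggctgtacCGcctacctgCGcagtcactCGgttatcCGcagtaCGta
Igf2r: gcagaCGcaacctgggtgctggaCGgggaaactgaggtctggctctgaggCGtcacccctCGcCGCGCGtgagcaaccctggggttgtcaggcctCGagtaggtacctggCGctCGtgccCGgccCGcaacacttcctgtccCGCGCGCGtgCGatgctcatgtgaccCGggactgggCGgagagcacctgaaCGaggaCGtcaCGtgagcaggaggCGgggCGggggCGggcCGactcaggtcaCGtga
The Airn window held 2 CG dinucleotides, the Zrsr1 and inner Grb10 windows held 8 each, and the inner Commd1 window held 13. The Igf2r window held 27, and the outer Grb10 start, at chr11:12037421-12037670 on the minus strand, held 40. The median over 32851 such windows was 6. None of the 7 windows held TGCCGC, the core letters that ZFP57 reads, on either strand. Only these 250 bases before each start were searched, not the rest of the H3K9me3 regions, and Impact had no window. Over all windows 8.68% held it on at least 1 strand.

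Levels are given in RPM, the reads of a region per 1000000 reads in all regions of that mark, from whole reads recovered from the deposited values. Reads in regions ran from 7033486 to 17649231 per H3K27ac library and from 3412599 to 8548902 per H3K9me3 library. Fold changes are log2 differences of the authors' normalized reads plus 1, tested with limma over the whole table after the weakest 25% of its regions had been dropped. A region is called where the p-value, adjusted by Benjamini and Hochberg's method, is under 0.05. For the members against OSKM a call only describes where a region stands in this fit, since the choice of genes used these comparisons, and it is no support for a difference. The RPM scale sits above the authors' scale by 0.36 in log2 for C2 against OSKM and 0.06 for C3 against OSKM in H3K27ac, and by 0.32 and 0.31 in H3K9me3. A library at 1 read has the lowest value its column holds. In H3K9me3, 12.5% of regions stood there in all 4 libraries of C2 against OSKM. A value of 1 read may thus stand for no reads, or for reads at or below input if input was subtracted. Where both libraries of a line are there, a fold is given as a bound against 3 reads per library. Such bounds, and counts of 1 read, describe the deposited values and set no ceiling on the raw reads.

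Pluripotent markers carried H3K27ac in every line, with 10 of 10 genes holding a region. Their strongest regions summed to 1830 and 1620 RPM in C2, 2330 and 1830 in C3, and 2840 and 2760 in OSKM. In C2 5 of the 10 were called lower than OSKM and in C3 1 was, Zfp42. At an unadjusted p under 0.05 there were 10 in C2, 0 of them higher, and 1 in C3, and edgeR called 8 and 1. Regions of 7 primitive endoderm markers summed to 247 and 168 RPM in C2 and 329 and 238 in C3, against 48.8 and 70.0 in OSKM, with 4 called higher in C2 and 6 in C3. Of 7 fibroblast genes 5 had a region, 1 of them at 1 read in every library, and these summed to 21.6 and 24.9 RPM in C2 and 19.9 and 22.9 in C3, against 13.7 and 19.6 in OSKM. Regions of 4 trophoblast genes summed to 44.0 and 44.6 RPM in C2 and 33.3 and 40.3 in C3, against 26.2 and 28.1 in OSKM, and 0 of either list were called by limma or edgeR, with 1 trophoblast gene in C3 at an unadjusted p under 0.05. The part of these differences in the results below was not tested. Of all regions kept, 5.21% were called higher and 5.38% lower in H3K27ac for C2 against OSKM, and 13.5% and 8.52% for C3 against OSKM. In H3K9me3 0.389% were called higher and 2.9% lower for C2, and 1.72% and 7.35% for C3. The share of calls that were higher depended on the scale. For H3K27ac it was 49.2% in C2, but 37.6% after median centring, 62.2% after quantile normalization and 72.2% on the RPM scale. For H3K27ac in C3 it was 61.3%, but 50.5% after median centring. For H3K9me3 it was 11.8% in C2 and 19% in C3, but 28.0% and 40.2% after quantile normalization and 41.8% and 65.3% on the RPM scale.

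At Igf2r and Airn, H3K9me3 covered the Airn start in C2 and C3 and was at the lowest value in OSKM. The region chr17:12739501-12741756 lies inside Igf2r and covers the Airn start at position 12741311. It had 51.6 and 61.0 RPM in C2 and 50.7 and 45.3 RPM in C3, against 0.14 and 0.117 RPM in OSKM, where each library stood at 1 read. In whole reads that was 230 and 208 in C2, 329 and 162 in C3, and 1 and 1 in OSKM. All 4 artificial-factor libraries lay far above both OSKM libraries, without overlap. The normalized reads were at least 116-fold higher in C2 and at least 101-fold higher in C3 than in OSKM. The fitted log2 fold changes were 7.27 ± 0.52 (SE, n = 2 per line) for C2 and 7.14 ± 0.52 for C3. Each library of C2 and C3 had a peak there in the authors' lists, with fold enrichments of 5.36 to 6.20, and neither OSKM library had one.

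The next region downstream on the Airn strand, chr17:12742091-12744691, gave the same picture. It had 59.5 and 45.7 RPM in C2 and 56.5 and 47.2 RPM in C3, against 1.40 and 0.117 RPM in OSKM. The OSKM libraries held 10 reads and 1 read. Both lines were called higher than OSKM, by 5.99 ± 0.65 in C2 and 6.04 ± 0.66 in C3 on the log2 scale. Per kb of region, the levels of these neighbours were 24.9 and 20.2 RPM in C2 and 21.3 and 19.9 in C3, against 0.0571 and 0.293 in OSKM. By log2 fold change they ranked 3 and 4 of 51633 H3K9me3 regions in C2, and 3 and 5 in C3. Since the genes were chosen by these differences, the ranks are a description only.

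H3K9me3 just outside the other end of Igf2r was not called different. The region chr17:12770401-12771459 is centred 1.2 kb before the Igf2r start, inside Airn. It had 15.0 and 25.5 RPM in C2 and 13.2 and 9.78 RPM in C3, against 15.6 and 17.1 RPM in OSKM. OSKM lay within the range of C2 and above C3. Neither difference was called, at -0.06 ± 0.28 in C2 and -0.82 ± 0.26 in C3. The OSKM libraries thus held H3K9me3 reads in this region, centred 29.6 kb downstream of the Airn start, while holding 1 read each over it.

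**Figure D1:**
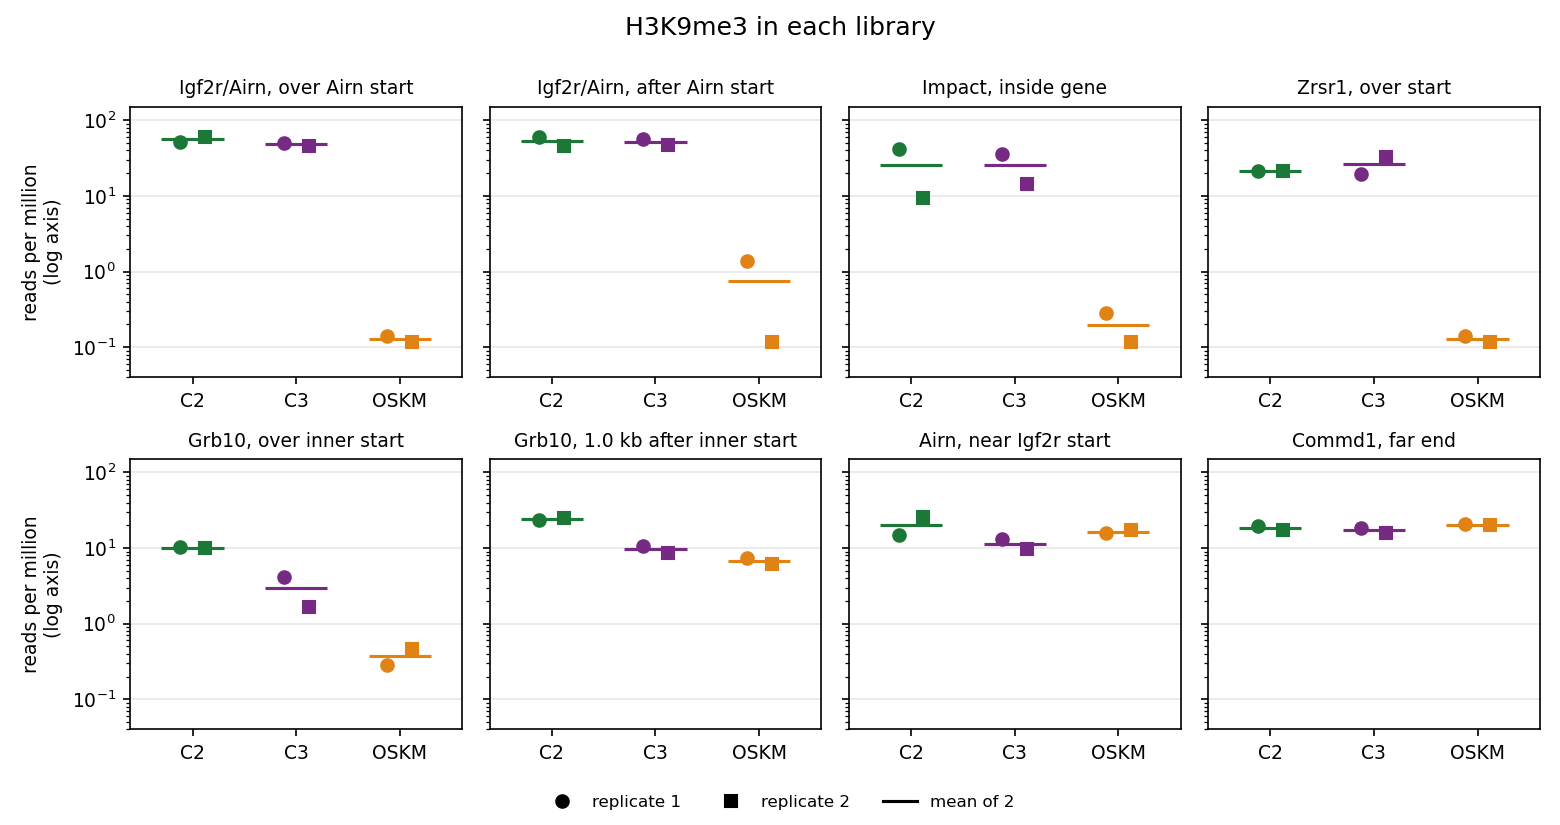
H3K9me3 level of 8 member regions in each library, in RPM on a log axis. Points are single libraries of C2, C3 and OSKM and lines are the mean of 2. Over the Airn start, in Impact and over the Zrsr1 start the OSKM points sit at or under 0.281 RPM, and those of C2 and C3 at or above 9.38 RPM.

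No H3K27ac region covered the Airn start, and the one over the Igf2r start was not called. The region chr17:12769450-12770824 covers the Igf2r start and had 12.1 and 13.4 RPM in C2 and 11.0 and 14.4 in C3, against 13.1 and 14.7 in OSKM. The lines overlapped, and neither difference was called (-0.48 ± 0.23 and -0.20 ± 0.23). The strongest region of Airn, chr17:12790354-12793321, lies well inside the transcript. It had 10.7 and 15.8 RPM in C2 and 18.0 and 14.6 in C3, against 16.3 and 17.7 in OSKM, and was not called either.

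A narrow H3K27ac region inside the H3K9me3 block differed in the same direction as H3K9me3. It is chr17:12739548-12740328, centred 1.4 kb before the Airn start. It had 2.94 and 2.84 RPM in C2 and 4.59 and 2.49 in C3, against 0.0806 and 0.0715 in OSKM, again 1 read per OSKM library. The normalized reads were at least 9.96-fold higher in C2 and at least 15.5-fold higher in C3. It was called in both lines, in C2 not after quantile normalization, although a peak was listed in 1 library of C2 and 1 of C3 only. The next region, chr17:12741348-12741837, begins just after the Airn start and had 3.86 and 2.56 RPM in C2 and 2.95 and 2.12 in C3, against 2.10 and 1.86 in OSKM. That was 26 reads in each OSKM library. The neighbour chr17:12742178-12742628 had 2.32 and 1.85 RPM in C2 and 1.87 and 0.737 in C3, against 2.18 and 2.14 in OSKM. Neither of these was called.

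At Impact both marks differed, in opposite directions. The H3K9me3 region chr18:12972724-12974634 lies inside the gene, centred 19 kb from the lower end of its extent. It had 42.0 and 9.38 RPM in C2 and 36.4 and 14.2 RPM in C3, against 0.281 and 0.117 RPM in OSKM. The OSKM libraries held 2 reads and 1 read, and C2 and C3 between 32 and 236. Replicate 2 was the lower one in both lines, and replicate 2 of C2 had no peak in the authors' list. With so few OSKM reads, the ratio of reads was 116 with a 95% exact counting interval of 39.3 to 569 for C2, and 121 with 40.9 to 589 for C3. The intervals take the recovered reads as raw counts and cover counting error only. If input reads had been subtracted, they would not cover even that. Both lines were called higher, by 5.52 ± 0.78 in C2 and 5.79 ± 0.68 in C3 on the log2 scale.

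The H3K27ac region chr18:12971126-12974863 holds the whole of that H3K9me3 region, 1911 bases. It had 34.5 and 21.8 RPM in C2 and 44.5 and 23.8 RPM in C3, against 94.8 and 75.7 RPM in OSKM. All C2 and C3 libraries lay below both OSKM libraries. Both lines were called lower, by a log2 fold change of -1.98 ± 0.31 in C2 and -1.44 ± 0.38 in C3. The call in C2 was lost after quantile normalization (log2 fold change -1.50), and the call in C3 when OSKM replicate 1 was left out (log2 fold change -1.29) and under the authors' FDR. A small region next to it, chr18:12974932-12975695, had 0.927 and 1.71 RPM in C2 and 0.0567 and 1.01 in C3, against 4.76 and 3.43 in OSKM. Limma called it lower in C3 (-3.54 ± 0.96) and not in C2 (-1.95 ± 0.54). Under the authors' FDR it was called lower in C2 too (log2 fold -2.03). Without C3 replicate 1, which held 1 read, it was no longer called in C3 (log2 fold change -2.13), nor was it on the RPM scale (-3.46).

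No other Impact region was called. Near the lower end of the extent, chr18:12954932-12956539 had 16.3 and 14.8 RPM in C2 and 11.5 and 10.9 in C3, against 12.4 and 10.1 in OSKM. Of the 7 H3K27ac regions of Impact, 6 were kept by the filter, and the other one was at 1 read in all 6 libraries.

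At Zrsr1 the marks differed in the same opposite way over the start of the gene. The H3K9me3 region chr11:22970995-22972195 covers the Zrsr1 start at position 22972005. It had 21.1 and 21.1 RPM in C2 and 19.6 and 32.7 RPM in C3, against 0.14 and 0.117 RPM in OSKM, where each library held 1 read. The normalized reads were at least 43.7-fold higher in C2 and at least 54.5-fold higher in C3. The log2 fold changes were 5.87 ± 0.66 and 6.23 ± 0.63. A peak was listed in C2 replicate 1 and in both C3 libraries.

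Further into Zrsr1 the H3K9me3 values spread more. The region chr11:22973291-22973985 had 13.7 and 0.293 RPM in C2 and 18.3 and 2.79 in C3, against 0.14 and 0.117 in OSKM. Replicate 2 was again far below replicate 1 in both lines. It was called higher in C3 (4.45 ± 0.98) but not in C2 (2.86 ± 1.42), and the call in C3 was lost without C3 replicate 1 (log2 fold change 3.11) and without OSKM replicate 2 (4.39). The authors' deposited table calls it higher in C2 too (log2 fold 5.49). The region between them, chr11:22972553-22973061, covers an inner Commd1 start. It had 2.92 and 2.64 RPM in C2 and 9.70 and 3.91 in C3, against 1.40 and 0.351 in OSKM. Limma did not call it, while the authors' deposited table calls it higher in C3 (log2 fold 2.66). Ahead of the gene, chr11:22967599-22967947 had 5.84 and 8.79 RPM in C2 and 7.24 and 3.35 in C3, against 0.983 and 1.75 in OSKM. Its lines did not overlap with OSKM. Limma did not call it, while the authors' deposited table calls it higher in both lines (log2 folds 2.08 and 1.65). The H3K27ac region on the same bases, chr11:22967154-22968154, had 1 and 2 reads in C2, 1 and 1 in C3 and 1 and 1 in OSKM and was left out by the filter.

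The H3K27ac region chr11:22971009-22975128 spans the start and most of Zrsr1 and overlaps 3 of these H3K9me3 regions. It had 31.1 and 24.7 RPM in C2 and 23.1 and 21.6 RPM in C3, against 57.8 and 60.5 RPM in OSKM. Both lines lay below OSKM without overlap and were called lower, with log2 fold changes of -1.44 ± 0.24 in C2 and -1.46 ± 0.23 in C3.

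Commd1, the host gene of Zrsr1, had no called difference at its own outer start. The H3K27ac region chr11:22980534-22983122 over the outer Commd1 start had 23.9 and 33.0 RPM in C2 and 22.1 and 24.7 in C3, against 23.2 and 23.8 in OSKM. The fold changes were -0.10 ± 0.20 and -0.07 ± 0.21, and neither was called. In RPM both C2 libraries lay above both OSKM libraries, so the sign of the C2 difference depends on the scaling. The strongest region of Commd1, chr11:22945177-22950760, had 55.4 and 59.6 RPM in C2 and 69.2 and 63.3 in C3, against 47.1 and 48.5 in OSKM. It was not called either. Its C2 difference was -0.09 on the authors' scale and 0.26 on the RPM scale, so its sign depends on the scaling. On the RPM scale its C3 difference was called (0.47).

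Towards the far end of Commd1, none of the 4 H3K9me3 regions was called. The strongest such region, chr11:22902736-22904071, had 19.8 and 17.6 RPM in C2 and 18.6 and 15.6 in C3, against 20.7 and 20.0 in OSKM. Beside it, the H3K27ac region chr11:22899145-22900038 had 0.232 and 1.42 RPM in C2 and 2.15 and 4.70 in C3, against 0.0806 and 0.0715 in OSKM. Its normalized reads were at least 13.9-fold higher in C3 than in OSKM, a called difference, and the C2 difference was not called. A region of the Commd1 window, chr11:22990100-22992534, overlaps Cct4 and not Commd1, and was not called.

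**Figure D2:**
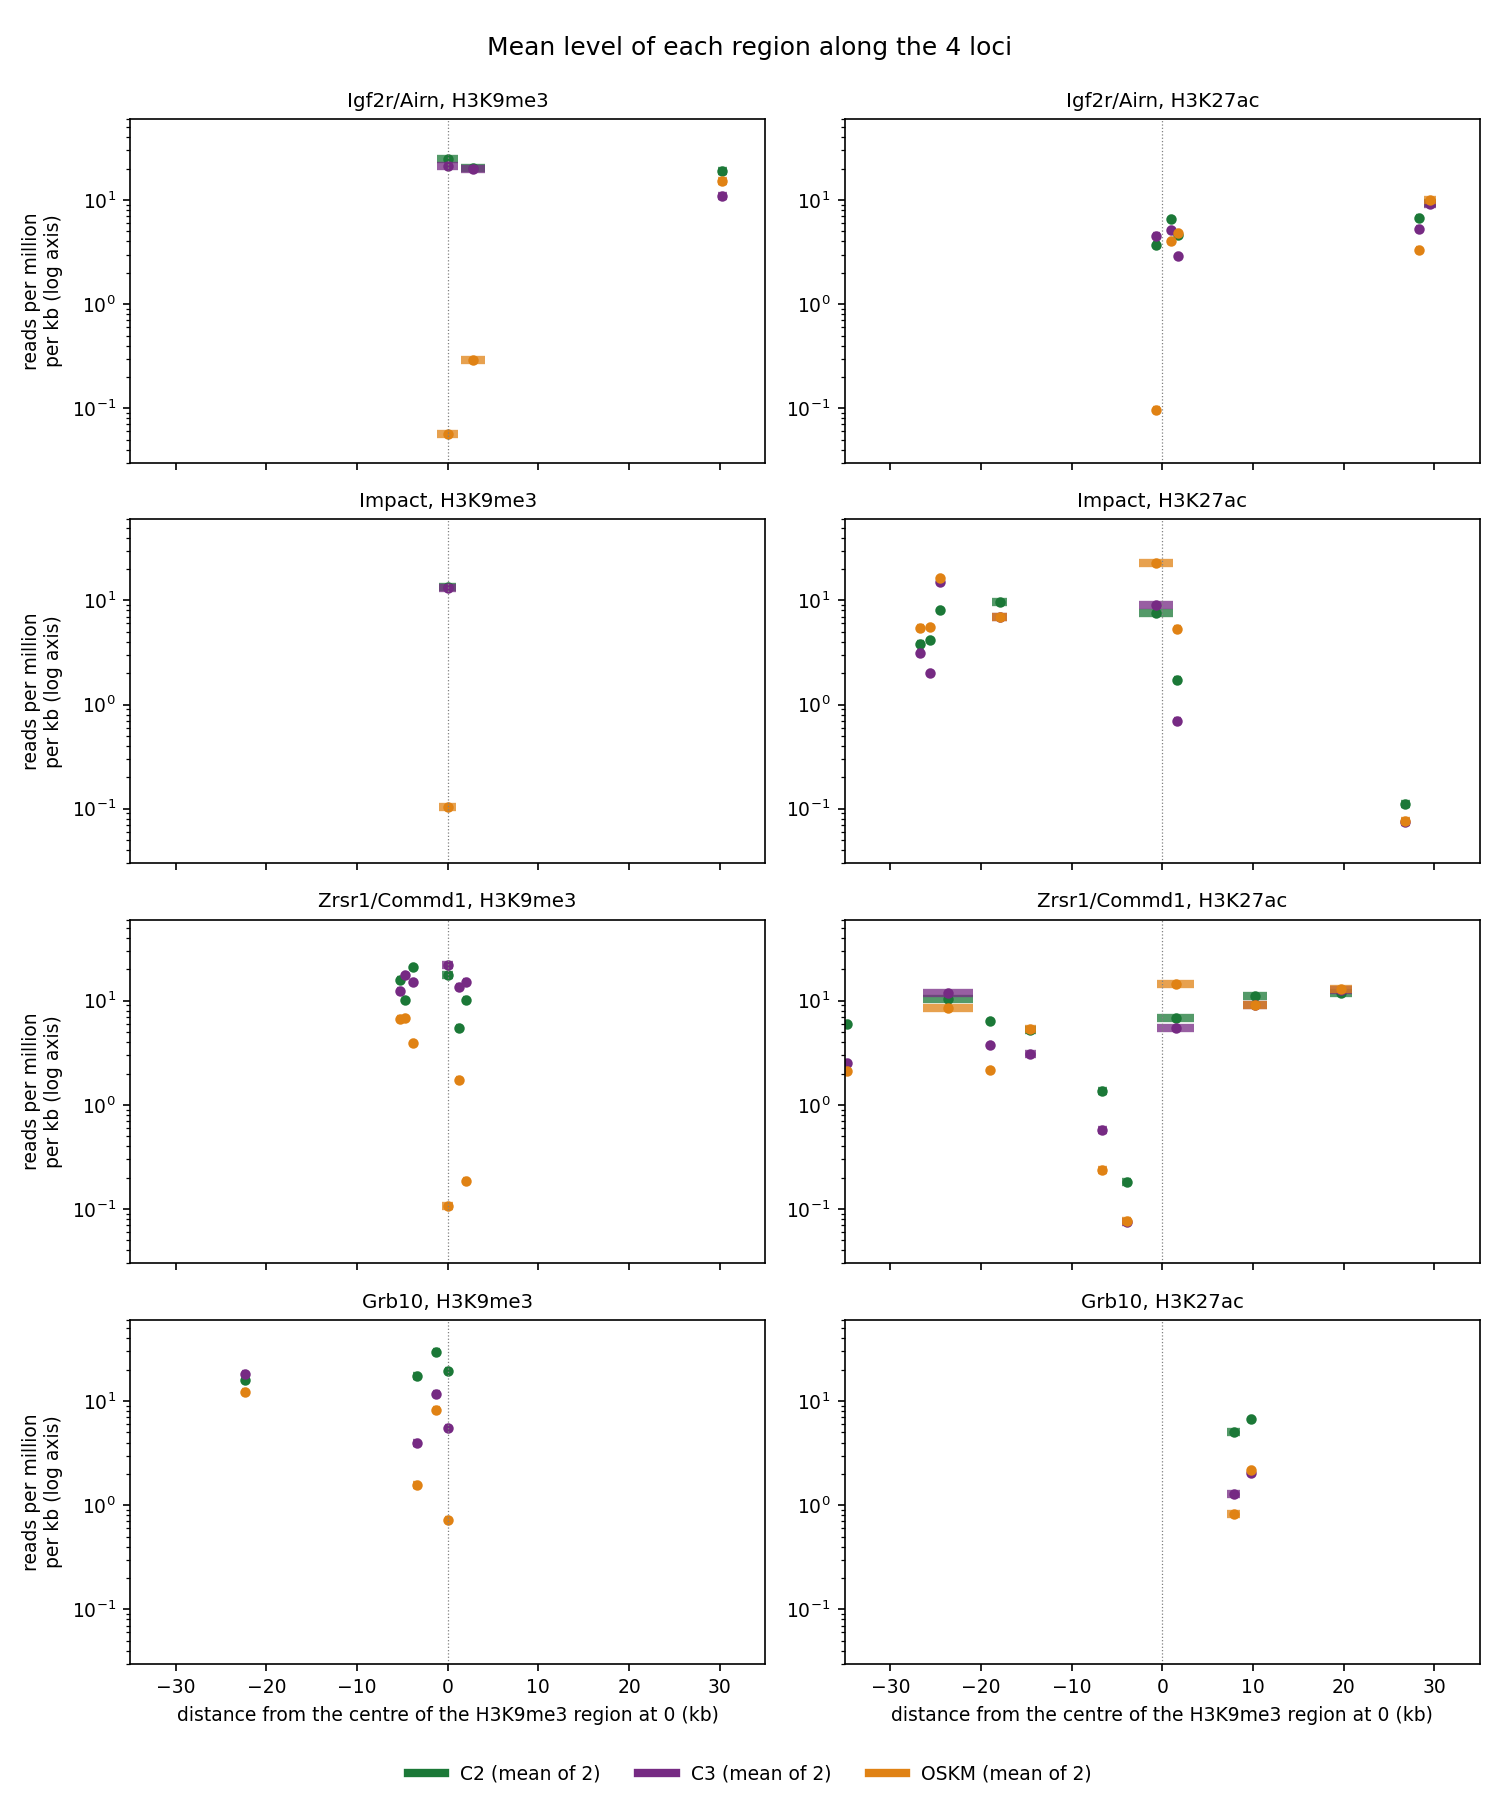
Mean level of every member region within 35 kb of the main H3K9me3 region of each locus, in RPM per kb on a log axis, against distance in kb. Bars span the region and dots mark its centre, for H3K9me3 on the left and H3K27ac on the right. At distance 0 OSKM is at or under 0.715 for H3K9me3 in all 4 loci, and at Impact and Zrsr1 it is the highest line for H3K27ac.

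At Grb10 limma called H3K9me3 around the inner start higher than OSKM in C2 and not in C3. The H3K9me3 region chr11:12027958-12028481 covers the inner Grb10 start at position 12027971 and is centred 9.2 kb inside the gene from its outer start. It had 10.3 and 9.96 RPM in C2 and 4.16 and 1.68 RPM in C3, against 0.281 and 0.468 RPM in OSKM. The lines fell in the order C2, C3, OSKM without overlap. C2 was called higher than OSKM (3.97 ± 0.68), and C3 was not (2.16 ± 0.93). The authors' deposited table calls this region higher in C3 too (log2 fold 2.66).

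In the 2 regions that follow, both C2 libraries were again the highest. In RPM C3 lay above OSKM in the nearer region and overlapped it in the farther one. The region chr11:12026574-12027392 had 23.3 and 24.9 RPM in C2 and 10.5 and 8.66 in C3, against 7.45 and 6.08 in OSKM. The region chr11:12024386-12025218 had 11.9 and 17.3 RPM in C2 and 5.55 and 1.12 in C3, against 1.69 and 0.936 in OSKM. C2 was called higher than OSKM in both, by 1.49 ± 0.29 and 3.03 ± 0.52, and C3 was not, at 0.19 ± 0.34 and 0.65 ± 0.85. The call of the nearer region in C2 was lost without OSKM replicate 2 (log2 fold change 1.38). The remaining H3K9me3 region, chr11:12005524-12006116, is centred 22.2 kb after the inner start and had between 6.04 and 11.6 RPM in all 6 libraries.

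C2 and C3 were also compared with each other at these regions, which had been singled out by the call in C2. C2 exceeded C3 by 1.83 ± 0.57 over the inner Grb10 start, by 1.31 ± 0.30 in the next region and by 2.37 ± 0.63 in the one after it, with both C2 libraries above both C3 libraries in each. None passed limma's test over the table (adjusted p = 0.448, 0.204 and 0.319, n = 2 per line). Without C3 replicate 1, the higher C3 library in each, the differences were 2.47, 1.48 and 3.46. The next region passed without the filter (limma adjusted p = 0.0218), with the replicate block (0.019) and under the authors' FDR (0.037). The one after it passed without the filter (limma adjusted p = 0.0416) and with the block (0.0166). Over 13 alternatives the largest adjusted p-values were 0.999, 0.686 and 0.999. Since these C2 libraries had singled out the regions, the p-values describe the fit and are no support for a difference between C2 and C3. Over all their regions, 0.134% of H3K9me3 regions and 0.0581% of H3K27ac regions were called between C2 and C3, and 0 of the 18 and 0 of the 42 kept member regions were. At an unadjusted p under 0.05 there were 4 of each, and edgeR called 0 of each. Of the calls between C2 and C3 over the whole tables, 34.8% were higher in C2 for H3K9me3, but 45.7% after median centring and 48.5% after quantile normalization. For H3K27ac it was 47.5%, but 58.6% on the RPM scale.

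At the other 3 loci no H3K9me3 difference between C2 and C3 passed the test at the called regions over or next to the starts and in Impact. C2 minus C3 was 0.22 ± 0.19 over the Airn start, 0.00 ± 0.21 in the region after it, -0.20 ± 0.56 at Impact and -0.27 ± 0.28 over the Zrsr1 start. The adjusted p-values from limma were 0.806, 0.998, 0.952 and 0.837. These regions had been singled out because both lines were called above OSKM, which favours a small difference between C2 and C3. With 2 libraries per line, the comparison thus cannot show that C2 and C3 are alike here.

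H3K27ac at Grb10 was spread over 18 weak to moderate regions, of which 17 were kept. The strongest, chr11:11947589-11949633, had 13.4 and 13.8 RPM in C2 and 4.31 and 8.20 in C3, against 7.58 and 13.7 in OSKM. It was not called, at 0.06 ± 0.32 in C2 and -0.83 ± 0.37 in C3. The region chr11:11922205-11923579 lies beyond the gene's far end and had 3.71 and 8.67 RPM in C2 and 4.93 and 5.16 in C3, against 2.02 and 0.715 in OSKM. Limma called C3 higher (1.94 ± 0.57) and C2 not (1.81 ± 0.63), a like difference. Under the authors' FDR C2 was called higher too (log2 fold 1.78). The call in C3 was lost in 8 of 13 other settings, among them those without C3 replicate 1 (1.81), C3 replicate 2 (2.06) or OSKM replicate 2 (1.24). Centred 1.4 kb inside the outer start, chr11:12035372-12036758 had 7.34 and 6.68 RPM in C2 and 3.12 and 0.46 in C3, against 0.403 and 1.86 in OSKM. Limma did not call it in C2 (2.52 ± 0.70) or C3 (0.40 ± 1.10), while the authors' deposited table calls it higher in C2 (log2 fold 2.28). C2 minus C3 was 2.16 ± 0.78 (limma adjusted p = 0.28). Over the alternatives that difference passed without the filter (limma adjusted p = 0.0317) and with the replicate block (0.00157). Without C3 replicate 1, the higher C3 library, it was 3.59. The region was added after its values were seen, so these p-values are no support.

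**Figure D3:**
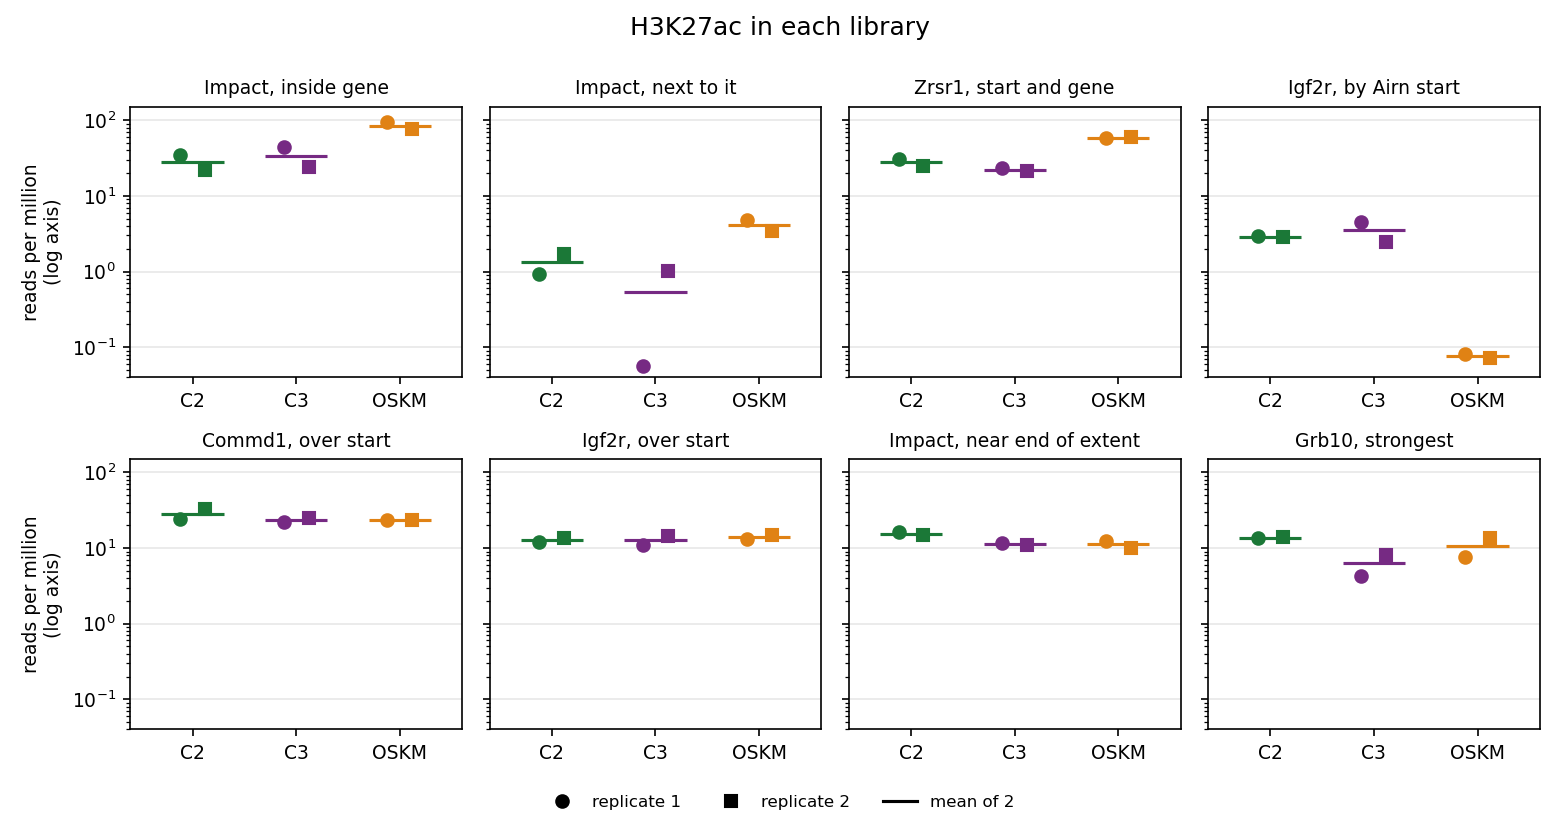
H3K27ac level of 8 member regions in each library, in RPM on a log axis. Points are single libraries of C2, C3 and OSKM and lines are the mean of 2. In Impact and over Zrsr1 the C2 and C3 points lie below both OSKM points, and over the Igf2r start the lines overlap. Over the Commd1 start C3 overlaps the other lines, and both C2 points lie above both OSKM points.

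Counted over all kept members, 7 of 18 H3K9me3 regions were called higher and 0 lower for C2 against OSKM, where 0.389% of all regions were called higher. For C3 against OSKM 5 of 18 were called higher and 0 lower, beside 1.72%. At an unadjusted p under 0.05 there were 8 of either direction in C2 and 11 in C3, and edgeR called 8 and 6. In H3K27ac 1 of 42 kept regions was called higher and 2 lower for C2, beside 5.21% and 5.38%, and 3 higher and 3 lower for C3, beside 13.5% and 8.52%. Since the members were chosen with such differences in view, nothing is read from these shares. The comparisons of C2 and C3 with OSKM share the OSKM libraries. For H3K9me3 the kept members had a median log2 fold change of 1.45 (C2) and 0.82 (C3), against -0.15 and -0.06 over all regions. For H3K27ac it was 0.11 and -0.08, against -0.01 and 0.03.

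**Figure D4:**
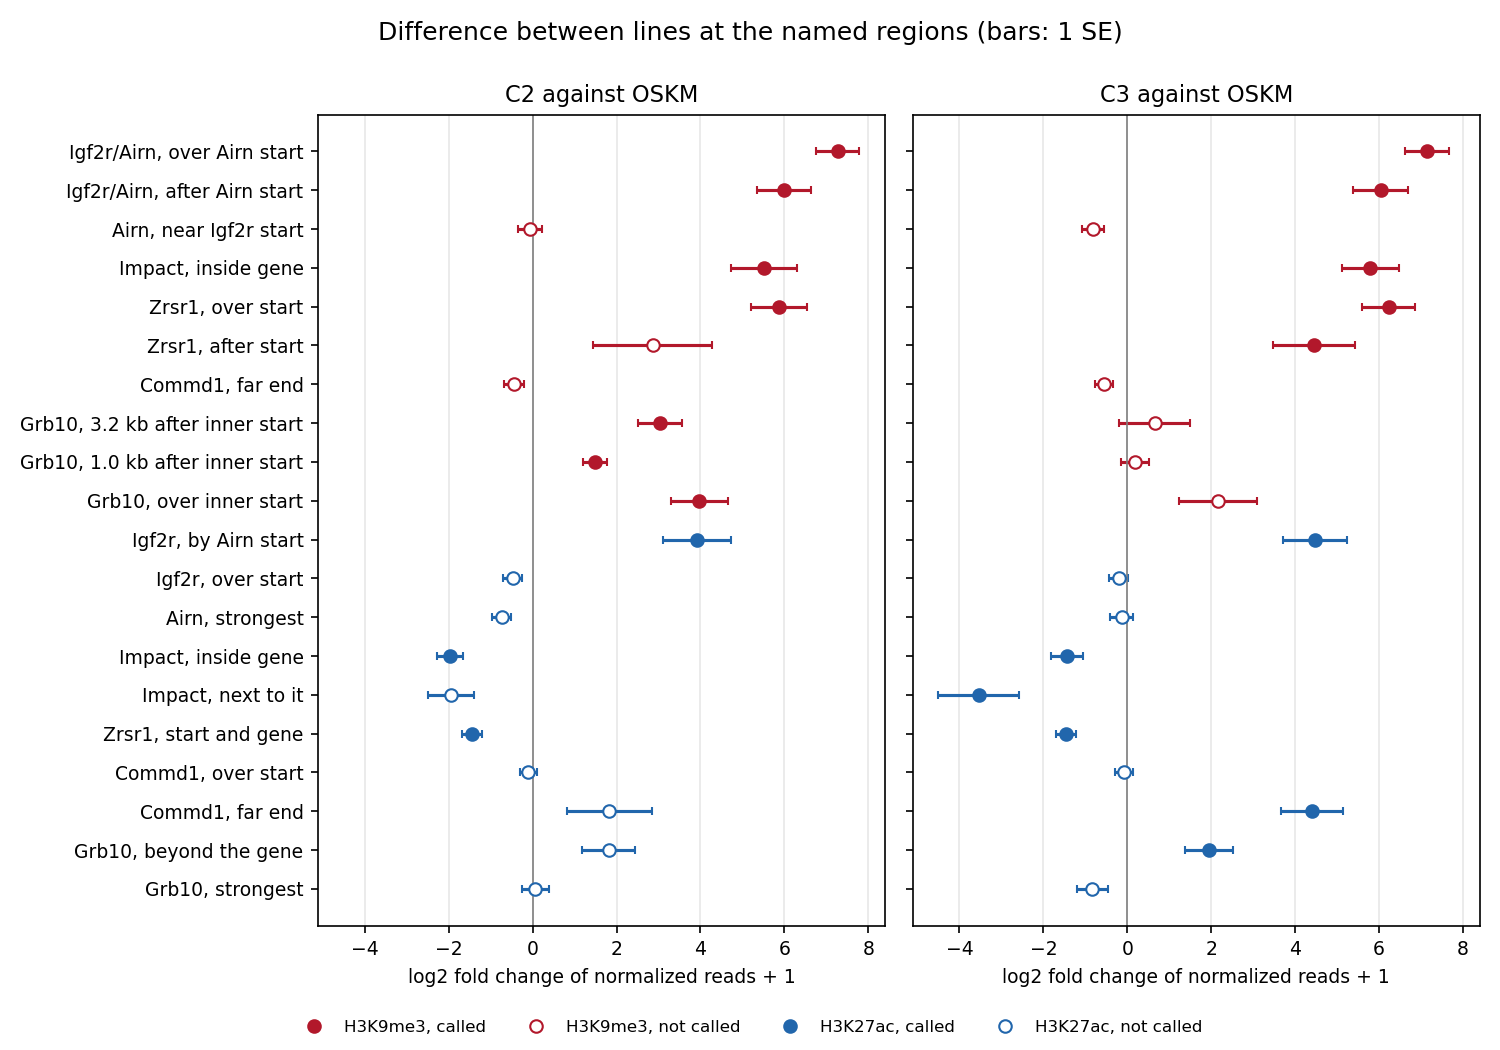
Log2 fold change of normalized reads plus 1 at 20 named regions, C2 against OSKM on the left and C3 against OSKM on the right, with bars of 1 SE. Filled points were called at an adjusted p under 0.05. H3K9me3 (red) reaches 7.27 over the Airn start, and H3K27ac (blue) is lower in Impact and Zrsr1.

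Of the 18 H3K9me3 regions 8 overlapped an H3K27ac region by at least 1 base, or 44.4%, against 18.7% of all H3K9me3 regions. At Impact and Zrsr1 a region called lower in H3K27ac lay on bases called higher in H3K9me3, in both lines, as described above. Of member H3K9me3 regions called higher, 2 of 7 in C2 and 3 of 5 in C3 overlapped such an H3K27ac region. Over all regions it was 12 of 201 (5.97%) in C2 and 10 of 887 (1.13%) in C3. Since the genes were chosen by differences in both marks, nothing is read from these shares or from the 44.4%. At Igf2r and Airn and at Grb10 no H3K27ac region called lower lay on bases called higher in H3K9me3.

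The redundant share of tags, a measure of duplicate reads in the file headers, was, in H3K9me3, 0.24 and 0.31 for C2 and 0.25 and 0.27 for C3, against 0.36 and 0.42 in OSKM. Its part in the differences was not tested. H3K9me3 reads in regions numbered 4455379 and 3412599 in C2 and 6492161 and 3579357 in C3, against 7118324 and 8548902 in OSKM.

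No HA peak lay in any member window in the 4 HA libraries. C2 cells at day 20 had 12376 and 44939 peaks and empty-vector cells 10666 and 22632. Over both C2 libraries the nearest peak lay 47.6 kb from Impact, 92.5 kb from Grb10, 127 kb from Igf2r, 186 kb from Airn, 236 kb from Commd1 and 244 kb from Zrsr1. Empty-vector cells had a peak 45.2 kb from Impact and 92.6 kb from Grb10. After duplicate removal the HA libraries held between 1629753 and 3896935 tags, so a weak site may not have been detectable at this depth.

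The lists here were set with earlier results of these data known, so calls and p-values describe the fit and are no support. Each gene was judged by its strongest region of a mark within 2.5 kb of its extent. That region need not be its control region, and its other regions were not counted. In H3K9me3, 25 of 39 other imprinted genes were kept. For C2 1 was called higher and 2 lower, and for C3 0 higher and 6 lower. Over all regions kept the shares were 0.389% higher and 2.9% lower for C2, and 1.72% and 7.35% for C3. The 2 lower for C2 are Kcnq1 and Kcnq1ot1, which share 1 region (-0.65 ± 0.13) that edgeR did not call. At an unadjusted p under 0.05 there were 11 in each line, 1 of them higher in C2 and 0 in C3, and edgeR called 1 and 6. Their median log2 fold changes were -0.41 and -0.31, beside -0.15 and -0.06 over all regions. Nap1l5, a paternally expressed gene, was the one called higher in C2 by limma (0.66 ± 0.16, adjusted p = 0.0469). H13 and Mcts2 share the region at chr2:152687460-152688083, which had 14.6 and 0.879 RPM in C2 and 0.154 and 0.279 in C3, against 9.41 and 9.59 in OSKM. It was at least 18.2-fold lower in C3 (limma adjusted p = 0.00125) and not called in C2. In H3K27ac 1 of 31 was higher and 2 lower for C2, and 2 of 30 higher and 1 lower for C3. Over all regions kept, 5.21% were higher and 5.38% lower for C2, and 13.5% and 8.52% for C3. The 2 higher for C3 are Kcnq1 (1.54) and Kcnq1ot1 (1.01). Meg3, a maternally expressed noncoding RNA, was lower in both lines, at least 111-fold in C2 and at least 133-fold in C3 (limma adjusted p = 0.00758 and 0.00246). Of the 9 genes that maintain imprints, such as Zfp57, Trim28 and Setdb1, limma called 0 in H3K27ac for C2, with 2 at an unadjusted p under 0.05 and 2 by edgeR, and 1 for C3. That was Dppa3, a protector of maternal methylation, which was lower (-0.80 ± 0.22, limma adjusted p = 0.0376). In H3K9me3 limma and edgeR called 0 of the 4 kept for C2, with 1 at an unadjusted p under 0.05. For C3 limma called 1, Zfp445, which was lower (-0.63 ± 0.08, limma adjusted p = 0.000733). The shares over all regions given above stand beside these counts too, and nothing is read from the counts.

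Over the 6 H3K27ac libraries, 3 members had a strongest region that spanned at least 1 log2 unit: Impact (2.07), Grb10 (1.48) and Zrsr1 (1.44). Among 3781 other genes, those with the smallest Euclidean distance to Impact in centred log2 RPM were Gdf15 and Gm34154, which share 1 region (0.42), and Pgpep1 (0.45). The genes nearest to Zrsr1 were Rpl13, Mir7079 and Snord68, which share 1 region (0.18). The genes nearest to Grb10 were Pecam1 (0.63) and Atp5h with Mrpl58, which share 1 region (0.76). The genes nearest to Impact and to Zrsr1 all lie on chromosome 8, which is neither gene's own, and those nearest to Grb10 lie on chromosome 11, as Grb10 does. The share of the compared genes on each chromosome is not given here, so nothing is read from these places.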

How the data were processed

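H3K27ac and H3K9me3 ChIP-seq of 3 iPS cell lines (2 libraries per mark and line) and HA ChIP-seq of 4 libraries were read from the files the authors deposited. The submitters' processing notes name the mm10 build, Bowtie2 2.2.5, CASAVA 1.8.2, DiffBind 1.16.2 and SAMtools 1.3. MACS called the peaks library by library, in version 2.1.0.20150731 for the histone marks and version 2.1.1.20160309 for the HA libraries, per the file headers. The deposited peak lists give a pileup signal, a fold enrichment ratio and -log10 p-values for each peak, of which the ratio was used only to describe peaks. The 6 deposited tables hold the authors' normalized reads (a signal), log2 fold changes and p-values for regions of 1 pair of lines each. Whether input reads had been subtracted is not given in the sources used here. C2 and OSKM share an input and C3 has its own, so input and line cannot be told apart there.

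Every normalized value was a whole multiple of its column's lowest value (tolerance 1e-06), and 100% of values gave whole reads. These gave the RPM levels and an edgeR alternative. Each table was fitted alone with limma 3.58.1 (R 4.3.3), with a variance trend, on log2(normalized reads + 1). A fold change on this scale understates the change of low regions. Alternatives used edgeR 4.0.16, DESeq2 1.42.0 size factors, other scalings and filters, and left out libraries. The fit was tested on simulated data. Counting intervals and floors take the recovered reads as raw counts, and cover counting error only if they are.

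The genes and lists were chosen with earlier results of these data known. Values in every library were given for the strongest region of each gene and mark, regions overlapping the other mark, and called regions. The regions of the outer Commd1 start, of the lower end of Impact, of Cct4 and at chr11:12005524-12006116 and chr11:12035372-12036758 were added after their values were seen. Adjusted p-values had been planned for H3K9me3 at the members, but are not printed against OSKM, because the choice of genes used those comparisons. The 6 input libraries were not analysed here. The genes around the members are not reported here.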

Additional observations from a re-analysis of the deposited data

How the results depend on the processing

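Of 21 calls at single member regions, all against OSKM, 8 were lost under at least 1 alternative. Since the genes were chosen by these comparisons, the other 13 are no sign of stability. The Igf2r region by the Airn start and the main Impact region lost their H3K27ac calls in C2 under quantile normalization, and the Grb10 region at chr11:12024386-12025218 lost its H3K9me3 call in C2 without the filter. The causes were not tested. Leaving out 1 library leaves a line with 1 sample, which is assumed to vary like the others.

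For C2 against OSKM in H3K27ac, the 3 member regions called became 5 with pseudocount 8, 6 after median centring, 1 after quantile normalization, 5 with edgeR under either set of size factors, 6 on the RPM scale, which was added after seeing the data, and 9 with the authors' FDR. Leaving out 1 library gave 4 to 6. For C3 against OSKM in H3K9me3 the 5 became 8 with the authors' FDR. For C2 against C3 the 0 in H3K27ac became 1 without the filter and 0 to 2 with 1 library left out, and the 0 in H3K9me3 became 2 without the filter, 1 with the authors' FDR and 0 to 3 with 1 library left out. Those in H3K9me3 were all Grb10 regions.

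Over whole tables, regions called for C2 against OSKM in H3K27ac numbered 10691, but 17254 after median centring, 3341 after quantile normalization, 17947 with the authors' FDR and 6439 to 24893 with 1 library left out. For C2 against C3 in H3K27ac there were 59, but 2723 without the filter, 171 with pseudocount 8, 0 after quantile normalization, 285 and 273 with edgeR, 333 on the RPM scale, 2430 with the authors' FDR and 326 to 9001 with 1 library left out. In H3K9me3 there were 1698 for C2 against OSKM, but 808 without the filter, 578 after quantile normalization, 613 on the RPM scale, 3379 with the authors' FDR and 501 to 8330 with 1 library left out. There were 4680 for C3 against OSKM, with 1503 to 8483 when 1 library was left out. There were 69 for C2 against C3, but 403 without the filter, 122 with pseudocount 8, 140 and 141 with edgeR, 685 with the authors' FDR and 75 to 902 with 1 library left out. On the recovered reads edgeR with TMM called 14675 and 23730 H3K27ac regions for C2 and C3 against OSKM, and 1257 and 4862 H3K9me3 regions.

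Replicate numbers run 1 and 2 in every line, and the labels do not say that they pair samples. Deviations of same-numbered libraries correlated at -0.054, -0.0411 and 0.346 in H3K27ac and 0.0024, 0.0354 and 0.107 in H3K9me3, for C2 against OSKM, C3 against OSKM and C2 against C3. With the replicate number as a block, member calls in H3K27ac became 8 for C2 against OSKM and 6 for C2 against C3, and 2 for C2 against C3 in H3K9me3. Regions called with the block numbered 17039 for C2 against OSKM and 13562 for C2 against C3 in H3K27ac, and 3439, 7256 and 474 in H3K9me3 for C2 against OSKM, C3 against OSKM and C2 against C3.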
